A study of Rattus norvegicus with 8 samples.

Results

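The genes described here make the machinery that copies DNA: 46 genes of replication licensing, DNA polymerases, nucleotide supply and chromatin assembly, with the cyclins of S-phase entry. They were taken by symbol from a deposited table of 16871 genes. The set and the lists of other genes below were chosen with earlier results of these data known. Of the 46, 45 had a row and all 45 passed the filter on low counts. Nascent RNA of Chaf1a was not analysed here, but its promoter window was among those searched for motifs. What was counted is nascent RNA (BrU-seq): living cultures took up bromouridine (BrU), and the labelled, newly made RNA was captured and sequenced. The label of the set is a functional class and not a cell type, so it was not tested against markers of a cell type.

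The cultures were primary neurons of newborn Sprague Dawley rats (P1-P2). The sample titles name hippocampus, whereas the growth protocol says that cortex was isolated as well to gain enough neurons. Each received a first treatment of 24 h at day 14 in vitro, a washout of 48 h and a second treatment of 4 h on day 17, with 2 mM BrU for the last 30 min. A treatment was either 1 µM tetrodotoxin (TTX), a toxin that closes voltage-gated sodium channels and so silences action potentials, or water as vehicle. TT cultures received TTX both times and HT cultures received water and then TTX. TH cultures received TTX and then water, and HH cultures received water both times, with 2 libraries in each of the 4 groups. The design asks whether an earlier silencing changes how transcription responds to a later one. Every group carries BrU and the same washout. The labels do not say whether the 2 libraries of a group came from separate cultures, so the p-values speak for the scatter among these 8 libraries and no further, and that scatter may be technical.

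Before a cell divides, the origin recognition complex (Orc proteins), Cdc6 and Cdt1 load the Mcm2-7 helicase onto DNA. Cdc45 and the GINS complex switch that helicase on, and primase with DNA polymerases alpha, delta and epsilon then copy the strands. The ring-shaped clamp Pcna holds polymerase delta to DNA. Many of these genes are switched on by E2F transcription factors when a cell enters S phase. Neurons have left the cell cycle, whereas glial progenitors in such cultures can still divide. Some of these proteins, among them subunits of the origin recognition complex and of primase, are also made in cells that no longer divide.

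Total counts ran from 3489176 to 4959887 per library. HH replicate 1 stands apart from the other libraries: it held the highest value of 21.6% of the 11372 genes tested and the lowest of 22.3%, against at most 13.9% and 13.3% in any of the other 7. No gene of the 11372 passed edgeR's quasi-likelihood test at an adjusted p of 0.05 in any comparison made, so the share called was 0% in each. Levels are given below in CPM, a library's count of a gene scaled to a common library size after normalization. They are compared only between libraries for the same gene, since the table gives no gene lengths. In a mixed culture, fewer cells of a type and less RNA per cell cannot be told apart. All listed neuronal markers were detected in every library. Their sum was 5104 and 4526 CPM in TT, 5271 and 4808 in HT, 4831 and 5431 in TH, and 7019 and 5288 in HH.

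By share of raw counts, the replication genes as a set were lowest in the cultures never given TTX. They took 0.108% and 0.114% of all counts in TT, 0.0972% and 0.108% in HT, 0.0923% and 0.107% in TH, and 0.0906% and 0.0901% in HH. On the normalized scale the order differed: the summed level was 1057 and 1117 CPM in TT, 978 and 1057 CPM in HT, 889 and 1076 CPM in TH, and 1007 and 899 CPM in HH, so TH replicate 1 was the lowest library and HH replicate 1 lay above HT replicate 1. A few deeply counted genes such as Orc4 and Pola1 weigh heavily in such sums, and gene by gene the picture was as follows. TT had the highest group mean of 26 of the 45 genes, against 25.9% of all genes tested. HH had the lowest group mean of 25 of the 45, against 32.0% of all genes tested. TT replicate 1, TT replicate 2 and HT replicate 2 held the lowest value of 0 of the 45, against between 8.84% and 11.0% of all genes tested in these libraries. HH replicate 2 held the highest value of 0 of the 45 and the lowest of 12, against 11.8% and 12.3% of all genes tested.

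**Figure D1:**
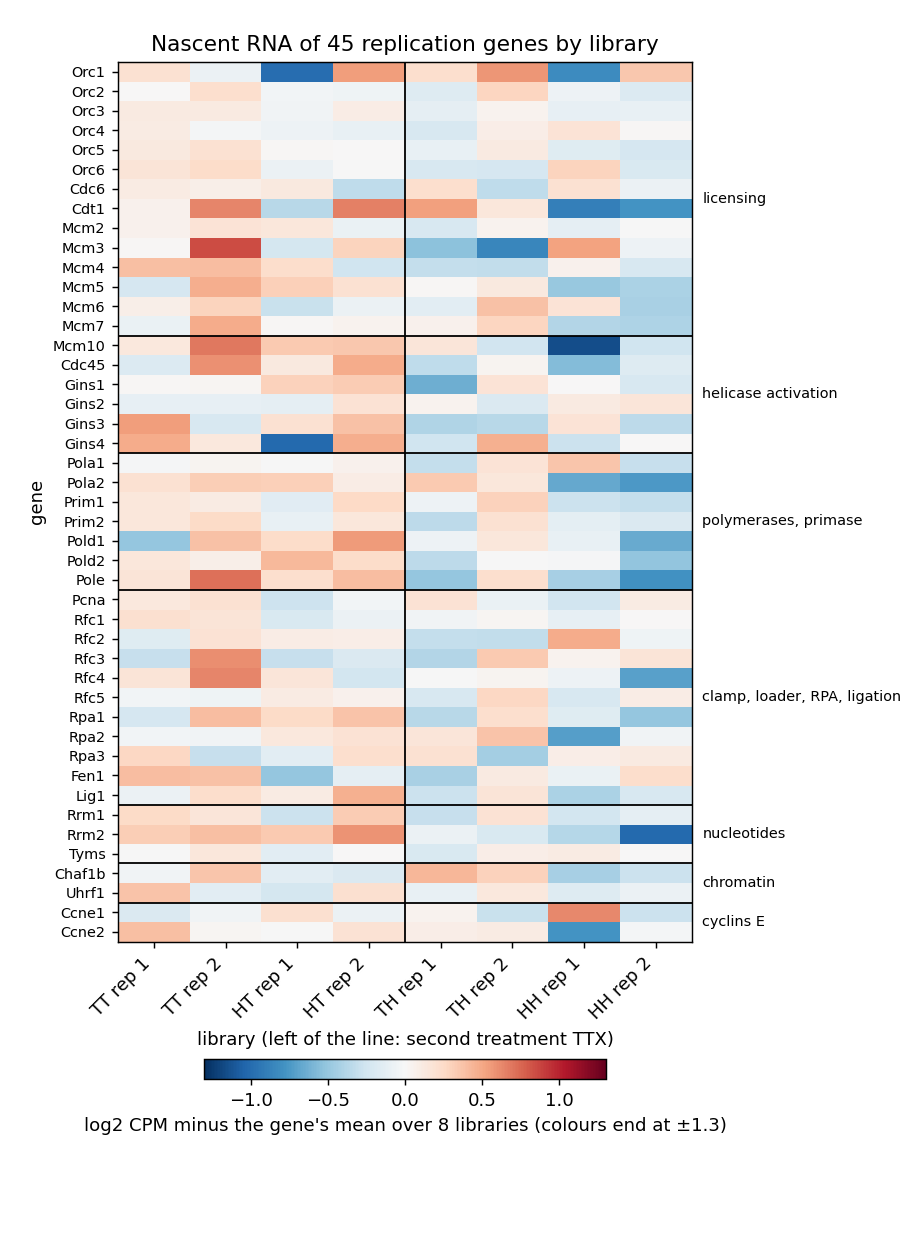
Each row is 1 of the 45 replication genes, ordered by role, and each column 1 library; colour is log2 CPM minus the gene's mean over the 8 libraries. Cells of HH, at the right, are mostly below 0, with exceptions such as Mcm3, Rfc2 and Ccne1 in HH replicate 1, and the rows of Mcm10, Pola2 and Rrm2 are lower in both HH libraries than in every TT and HT library.

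The second TTX, averaged over history (HT and TT against TH and HH), was accompanied by slightly higher nascent RNA levels of most of these genes, none of which passed the test. The log2 change was above 0 for 37 of 45, against 49.7% of all genes tested, with a median of 0.17 against -0.0011 over all genes. None passed (edgeR, smallest adjusted p = 0.224; DESeq2 and limma-voom also called 0). At an unadjusted p under 0.05, 8 of the 45 (17.8%) were higher and 0 lower, against 4.35% and 2.59% of all genes tested. With DESeq2 the 8 became 3, and with limma-voom 5. The share of all genes tested was not taken for these and the following settings, so they show only how the count itself moved. Leaving out HH replicate 1 and HT replicate 1 together gave 36 genes above 0 and 3 at that p. Leaving out TT replicate 2 gave 3 at that p and leaving out HT replicate 2 gave 4. Without TH replicate 1 there were 5.

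The gene with the smallest p was Rrm2, the small subunit of ribonucleotide reductase, which makes the deoxynucleotides that polymerases use. It had 13.2 and 13.9 CPM in TT and 13.5 and 16.0 CPM in HT, against 9.94 and 9.11 CPM in TH and 8.02 and 4.96 CPM in HH. Every library with the second TTX thus lay above every library without it, which held for 2 of the 45 genes and for 2.69% of all genes tested; the reverse held for 0 of the 45 and for 1.64% of all genes tested. The averaged log2 change of Rrm2 was 0.86 ± 0.18 (SE, n = 4 libraries per side), which did not pass (edgeR adjusted p = 0.224). The other gene whose libraries did not overlap was Pold2, a subunit of DNA polymerase delta. It had 5.23 and 4.98 CPM in TT and 6.47 and 5.61 CPM in HT, against 3.59 and 4.65 CPM in TH and 4.63 and 3.13 CPM in HH. The gap was narrow, 4.98 CPM in TT replicate 2 against 4.65 CPM in TH replicate 2, on 12 to 25 counts per library. Pold2 was not among the 8 genes of smallest p. The count of 2 became 7 without TT replicate 1, 5 without HT replicate 2 and 9 without TH replicate 2. It was 4 without HH replicate 1 and 6 without HH replicate 1 and HT replicate 1 together. Fewer libraries separate more easily, and the share of all genes tested was not taken in those sets. The higher counts are therefore not a stronger result.

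Next by p was Pole, the catalytic subunit of DNA polymerase epsilon, which copies the leading strand. Its levels were 16.2 and 23.9 CPM in TT and 16.8 and 19.1 CPM in HT, against 9.94 and 16.8 CPM in TH and 10.5 and 8.09 CPM in HH. TH replicate 2 reached the TTX libraries and the other vehicle libraries lay well below them. The averaged log2 change was 0.76 ± 0.21 (edgeR adjusted p = 0.345). Mcm10, which helps start the loaded helicase, had 5.98 and 8.96 CPM in TT and 6.99 and 7.02 CPM in HT, against 6.08 and 4.45 CPM in TH and 2.16 and 4.43 CPM in HH, a log2 change of 0.79 ± 0.27 (edgeR adjusted p = 0.502). These genes were counted thinly: Mcm10 had from 7 to 45 counts per library and Rrm2 from 19 to 70.

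**Figure D2:**
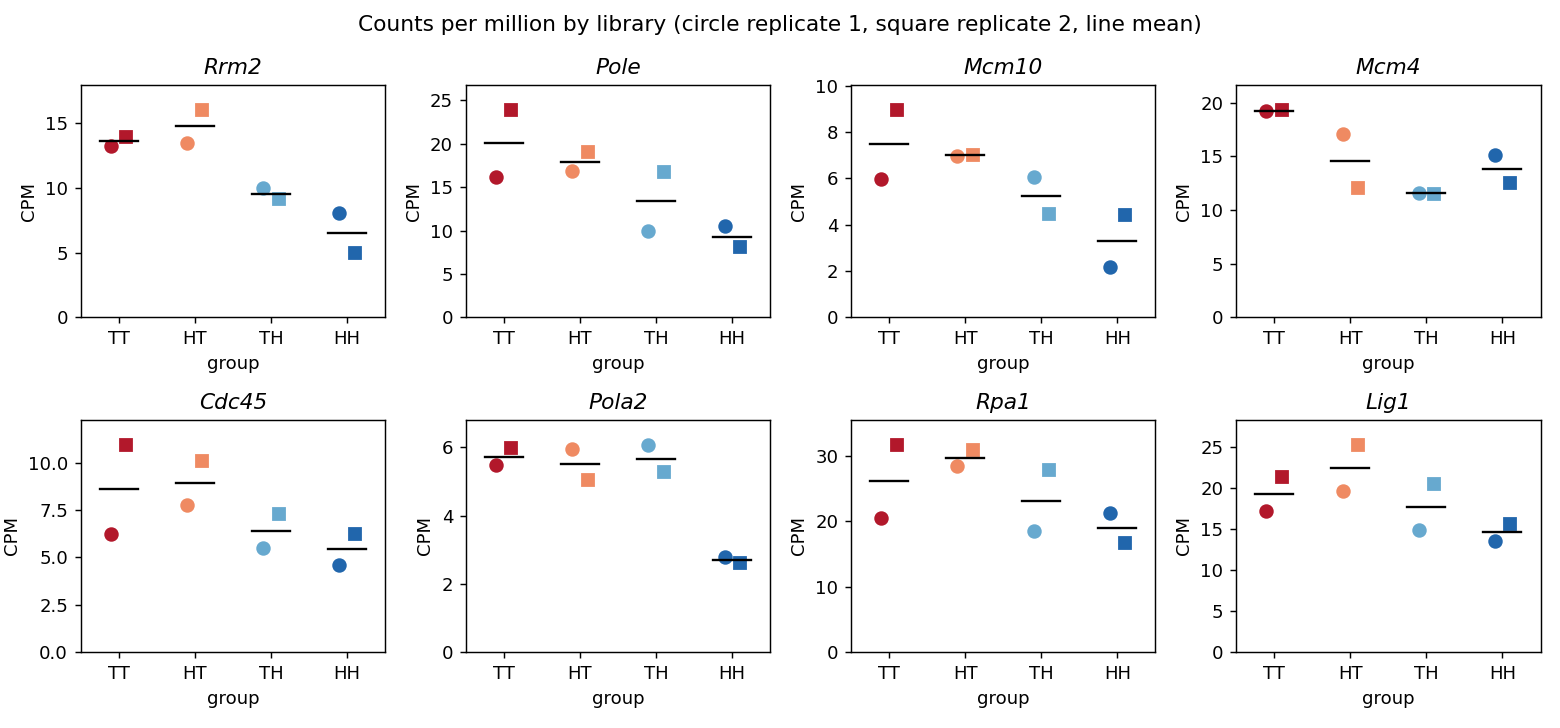
CPM of the 8 replication genes of smallest p for the second TTX averaged over history, by group; circles are replicate 1, squares replicate 2 and lines the mean of 2 libraries. Rrm2 separates TT and HT from TH and HH, Pola2 has only the HH libraries low at 2.78 and 2.61 CPM, and Mcm4 is highest in TT.

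Windows around the start sites of these genes were searched for motifs known from cell-cycle genes, and the sequences of the first 4 of the 8 genes with a RefSeq promoter are shown because the set is defined by a role in S phase. Windows of 300 bases, 250 before to 50 after the annotated start, come from RefSeq on build GRCr8 (the counts were made on rn6) and matched 38 of the 46 symbols in 40 windows. Capitals mark an E2F consensus (TTTCCCGC, TTTCGCGC, TTTGCCGC or TTTGGCGC), the shorter E2F core GGCGGGA, chosen after these windows were seen, or a CCAAT box (CCAAT), on either strand. The core and the consensus form TTTCCCGC, read on the other strand, can overlap.
Pole, chr12:52053613-52053912, minus strand: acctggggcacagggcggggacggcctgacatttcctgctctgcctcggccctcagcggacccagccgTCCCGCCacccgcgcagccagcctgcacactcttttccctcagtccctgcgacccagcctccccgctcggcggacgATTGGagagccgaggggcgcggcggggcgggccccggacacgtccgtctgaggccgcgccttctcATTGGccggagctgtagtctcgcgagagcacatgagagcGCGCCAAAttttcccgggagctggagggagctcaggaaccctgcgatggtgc
Mcm10, chr17:78175137-78175436, plus strand: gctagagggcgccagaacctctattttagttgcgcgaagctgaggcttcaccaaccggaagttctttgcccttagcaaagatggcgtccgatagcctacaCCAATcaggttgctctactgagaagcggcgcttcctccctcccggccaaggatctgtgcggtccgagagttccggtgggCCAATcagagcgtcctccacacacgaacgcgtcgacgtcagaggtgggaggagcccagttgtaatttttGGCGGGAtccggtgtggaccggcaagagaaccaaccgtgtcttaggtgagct
Cdc45, chr11:95689928-95690227, plus strand: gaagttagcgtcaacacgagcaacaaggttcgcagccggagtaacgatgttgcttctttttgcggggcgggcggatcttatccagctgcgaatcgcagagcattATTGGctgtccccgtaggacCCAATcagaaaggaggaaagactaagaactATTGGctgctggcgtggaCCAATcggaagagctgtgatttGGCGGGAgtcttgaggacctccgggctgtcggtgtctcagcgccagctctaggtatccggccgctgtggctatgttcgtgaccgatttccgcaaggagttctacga
Pola2, chr1:212680493-212680792, minus strand: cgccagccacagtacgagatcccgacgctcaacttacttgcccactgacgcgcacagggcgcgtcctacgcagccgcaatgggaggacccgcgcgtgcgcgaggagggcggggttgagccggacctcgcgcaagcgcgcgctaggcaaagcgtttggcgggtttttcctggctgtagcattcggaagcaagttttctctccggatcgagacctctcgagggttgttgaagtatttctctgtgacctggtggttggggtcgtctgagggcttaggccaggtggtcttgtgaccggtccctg
Positions from the start site are those of the leftmost base of a match as printed. The Pole window held the consensus form TTTGGCGC on the other strand at position -2. It also held the core, on the other strand, at position -182 and 2 CCAAT boxes. The Mcm10 window held the core, also at position -2, and Cdc45 had the core at position -56 with 4 CCAAT boxes. No match was found in the Pola2 window, which says only that these letters are not in it.

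An E2F consensus lay in 17 of the 40 windows of the set (42.5%), against 3.89% of the 9075 windows of genes tested and 2.14% of all 33469 windows. Mitosis genes, listed for comparison, had it in 1 of 29 windows (3.45%). A CCAAT box lay in 62.5% of the windows of the set, in 79.3% of those of mitosis genes and in 37.3% of those of genes tested. The core lay in 40.0%, 24.1% and 21.0% in the same order. Since the core was chosen after windows of the set were seen, its higher share there is no independent result. A match is a description of the sequence and not evidence of binding.

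Without an earlier silencing, HT was set against HH, and 30 of 45 genes lay above 0 (50.2% of all genes tested), with a median log2 change of 0.13 and a range from -0.43 to 1.35. In 22 of the 45 (48.9%) both HT libraries exceeded both HH libraries, against 18.6% of all genes tested, and in 4 the HT libraries were the lower, against 16.7%. At an unadjusted p under 0.05, 7 were higher and 0 lower, against 3.75% and 2.73% of all genes tested (edgeR), 3 were higher with DESeq2, and 4 were higher without HH replicate 1. The count was 3 without HT replicate 2 and 4 without HH replicate 2. None passed (edgeR, smallest adjusted p = 0.519 for Rrm2, at 1.20 ± 0.27; DESeq2 and limma-voom called 0). By role, 6 of 7 polymerase and primase genes lay above 0, with a median of 0.65. The helicase activation genes had 5 of 6 above 0 and a median of 0.44, and the licensing genes 9 of 14 and 0.084. The clamp, loader, single-strand binding and ligation genes had 5 of 11 and a median of -0.066.

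In cultures silenced before (TT against TH), 38 of 45 lay above 0 (50.9% of all genes tested), again with a median of 0.13, and with a range from -0.43 to 1.51. Both TT libraries exceeded both TH libraries in 13 of the 45 (28.9%), against 15.9% of all genes tested, and the TT libraries were the lower in 2, against 14.1%. At an unadjusted p under 0.05 there were 2 higher and 0 lower, against 1.71% and 0.923% of all genes tested, and none passed (edgeR, smallest adjusted p = 1.00; DESeq2 and limma-voom called 0). The TH libraries decide much of this: without TH replicate 1 the median was 0.061 and 26 genes lay above 0, and without TH replicate 2 the median was 0.29.

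HT against HH and TT against TH share no library. Of the 45 genes, 24 (53.3%) lay above 0 in both and 1 lay below 0 in both, against 29.4% of all genes tested above 0 in both. With 30 and 38 of the 45 above 0 in the comparisons taken singly, most of that overlap is fixed by those counts. Orc3, Orc5, Gins3, Pold2 and Rrm2 had TTX libraries above vehicle libraries in both comparisons, 5 of the 45 against 5.09% of all genes tested. That number too depends on how many genes separated in each comparison taken singly, so it does not show that the comparisons agree. Gins3 had only 10 to 23 counts per library. Across the 45 genes the sizes of the log2 changes in the 2 comparisons had a Pearson correlation of -0.019, given as a description, and 0.25 across all genes tested. Rrm2 was among the 3 genes of smallest p in both comparisons, Pola2 in HT against HH and Mcm3 in TT against TH.

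**Figure D3:**
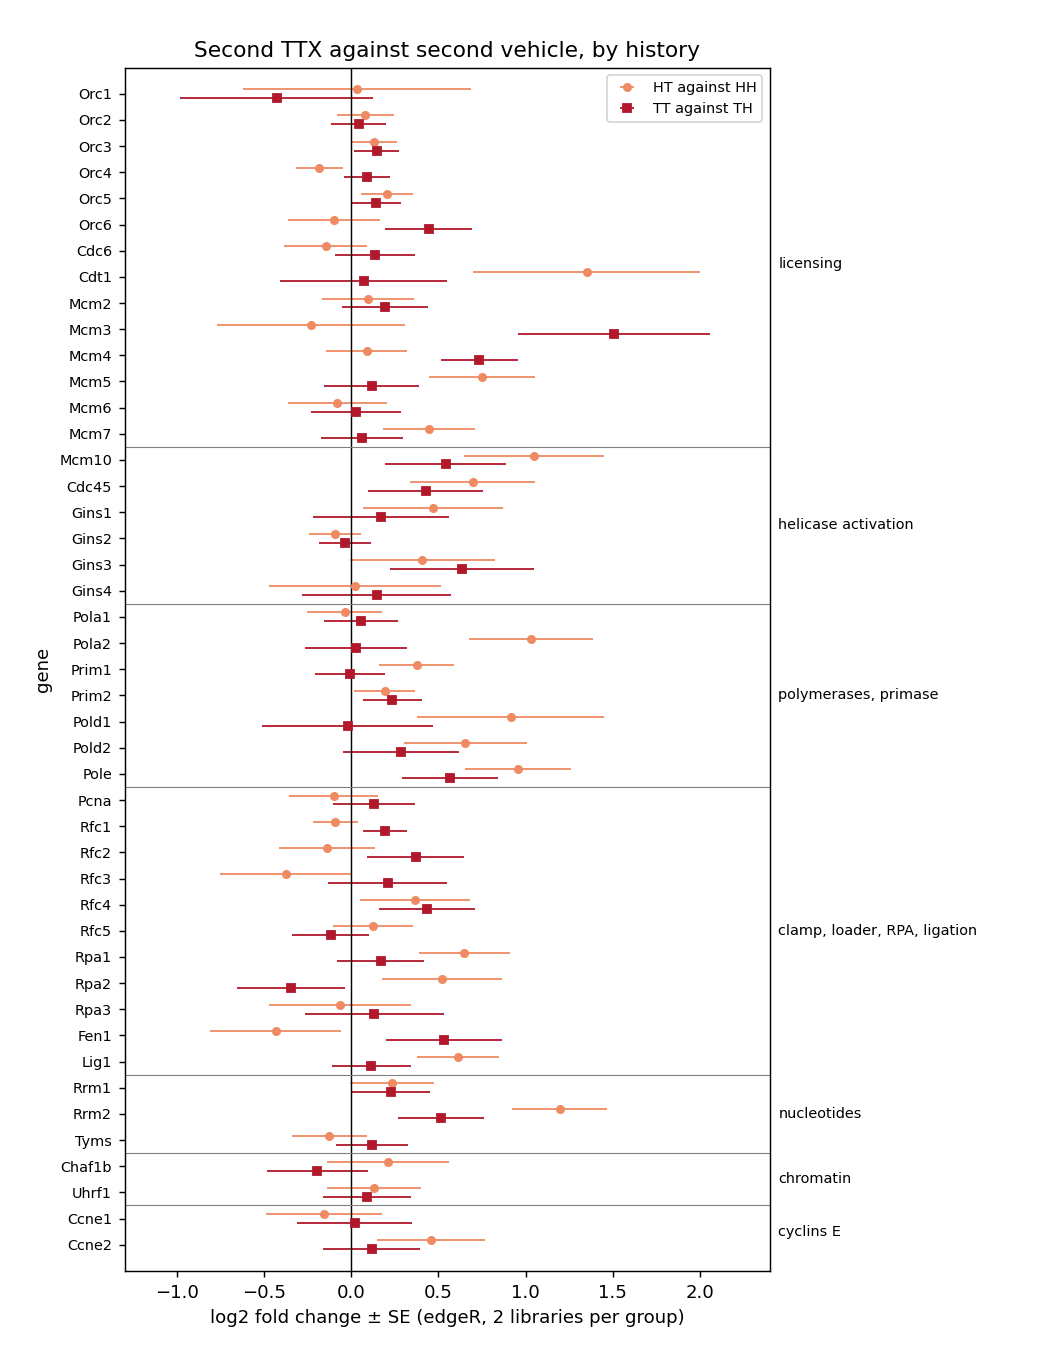
Log2 fold change ± SE of each replication gene for HT against HH (circles) and TT against TH (squares), ordered by role; each group has 2 libraries. Polymerase and helicase activation genes such as Pola2, Pole and Mcm10 lie farther right for HT against HH, Mcm3 and Mcm4 lie farther right for TT against TH, and Orc2 to Orc5 lie close to 0 in both.

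Among the licensing genes, the averaged changes of the origin recognition complex ran from -0.20 to 0.17. Orc4, the most deeply counted of them, had 151 and 138 CPM in TT and 134 and 132 CPM in HT, against 122 and 150 CPM in TH and 159 and 142 CPM in HH. Its averaged log2 change for the second TTX was -0.05 ± 0.10, and those of Orc2, Orc3 and Orc5 were 0.06 ± 0.11, 0.14 ± 0.09 and 0.17 ± 0.10. Orc6 stood at 0.17 ± 0.18 and Orc1 at -0.20 ± 0.43, with Orc1 on 4 to 20 counts per library. Cdc6, a loader of the helicase, stood at -0.01 ± 0.17.

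The Mcm2-7 subunits, which form a ring in the cell, did not share 1 pattern. Mcm4 had 19.2 and 19.3 CPM in TT and 17.1 and 12.1 CPM in HT, against 11.6 and 11.5 CPM in TH and 15.1 and 12.5 CPM in HH. It was highest in TT and lowest in TH, with a log2 change of 0.73 ± 0.22 in TT against TH and 0.09 ± 0.23 in HT against HH (edgeR adjusted p = 1.00 and 0.965). Mcm3 was likewise highest in TT and lowest in TH, at far fewer counts, 5 to 22 per library: 2.24 and 4.38 CPM in TT, 1.81 and 2.81 CPM in HT, 1.38 and 1.01 CPM in TH and 3.39 and 2.09 CPM in HH. Its change in TT against TH was 1.51 ± 0.55, or 0.92 without TT replicate 2.
Mcm7 had instead its lowest values in HH: 11.5 and 17.3 CPM in TT, 12.4 and 12.6 CPM in HT, 12.7 and 15.0 CPM in TH and 9.25 and 9.13 CPM in HH. Mcm5 likewise stood at 0.75 ± 0.31 in HT against HH and 0.12 ± 0.28 in TT against TH. Mcm2 and Mcm6 had averaged changes of 0.15 ± 0.18 and -0.03 ± 0.19. Cdt1, which brings the ring to origins, was thinly counted, with 3 to 18 counts per library. It had 2.24 and 3.59 CPM in TT, 1.55 and 3.65 in HT, 3.31 and 2.43 in TH, and 0.925 and 1.04 in HH, so that both HH libraries were the lowest.

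Of the helicase activation genes, Cdc45 had 6.23 and 11.0 CPM in TT and 7.76 and 10.1 CPM in HT, against 5.52 and 7.29 CPM in TH and 4.63 and 6.26 CPM in HH. Its averaged change was 0.56 ± 0.24 (edgeR adjusted p = 0.693), or 0.32 without TT replicate 2, and TT replicate 1 lay within the vehicle range. Gins2 was the most counted gene of this role. It had 48.1 and 48.0 CPM in TT and 47.9 and 59.2 CPM in HT, against 53.3 and 45.5 CPM in TH and 56.1 and 57.9 CPM in HH, an averaged change of -0.06 ± 0.10. Gins1, Gins3 and Gins4, the other subunits of the same complex, stood at 0.32 ± 0.28, 0.52 ± 0.29 and 0.08 ± 0.33.

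All 7 polymerase and primase genes lay above 0 for the second TTX averaged over history, with a median of 0.45. Pola1, the catalytic subunit of polymerase alpha, and its partner Pola2 stood apart from each other. Pola1 had 143 and 148 CPM in TT and 144 and 150 CPM in HT, against 117 and 163 CPM in TH and 186 and 117 CPM in HH, an averaged change of 0.01 ± 0.15. HH replicate 1 was the highest library, while HH replicate 2 and TH replicate 1 were the lowest. Pola2 had 5.48 and 5.98 CPM in TT and 5.95 and 5.05 CPM in HT, against 6.08 and 5.26 CPM in TH and 2.78 and 2.61 CPM in HH. All 6 libraries given TTX at either time lay well above both HH libraries, on 9 and 10 counts in HH and 18 to 30 elsewhere. Prim1 and Prim2, the primase subunits, stood at 0.18 ± 0.15 and 0.21 ± 0.12, and Pold1, the catalytic subunit of polymerase delta, at 0.45 ± 0.36.

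Most clamp and clamp loader genes stood near 0. Pcna, the clamp, had an averaged change of 0.01 ± 0.18, and Rfc2, Rfc3 and Rfc5 of the loader stood at 0.11 ± 0.20, -0.08 ± 0.25 and 0.00 ± 0.16. Rfc1, the large subunit, had 65.3 and 63.1 CPM in TT and 49.2 and 53.3 CPM in HT, against 54.7 and 57.5 CPM in TH and 52.4 and 56.6 CPM in HH. It was highest in TT, while HT overlapped HH. Rfc4 stood at 0.40 ± 0.21.
Rpa1, the large subunit of the protein that coats single-stranded DNA, had 20.4 and 31.7 CPM in TT and 28.5 and 30.9 CPM in HT, against 18.5 and 27.7 CPM in TH and 21.3 and 16.7 CPM in HH. Lig1, which seals the lagging strand, had 17.2 and 21.3 CPM in TT and 19.7 and 25.3 CPM in HT, against 14.9 and 20.4 CPM in TH and 13.6 and 15.6 CPM in HH. In both genes HT lay above HH and the TT and TH libraries overlapped, with changes in HT against HH of 0.65 ± 0.26 and 0.61 ± 0.24 (edgeR adjusted p = 0.754 and 0.747). Rpa2 and Rpa3 had averaged changes of 0.09 ± 0.23 and 0.03 ± 0.28.

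In the remaining roles Rrm2, described above, stood farthest from 0. Rrm1, the large subunit of the same enzyme, had 29.6 and 27.7 CPM in TT and 20.4 and 31.4 CPM in HT, against 20.2 and 28.3 CPM in TH and 21.0 and 23.0 CPM in HH, an averaged change of 0.23 ± 0.16. Tyms, which makes thymidylate, stood at -0.00 ± 0.15. Uhrf1, which helps copy DNA methylation, had 15.4 and 10.8 CPM in TT and 10.1 and 13.8 CPM in HT, against 11.0 and 13.2 CPM in TH and 10.5 and 11.2 CPM in HH. The groups overlapped throughout for Uhrf1, and its averaged change was 0.11 ± 0.18. Ccne2, a cyclin of S-phase entry, had 11.7 and 8.96 CPM in TT and 8.80 and 10.1 CPM in HT, against 9.39 and 9.51 CPM in TH and 4.93 and 8.61 CPM in HH. HH replicate 1 was the low library there, and Ccne1, its relative, stood at -0.07 ± 0.23 with its highest value, 12.6 CPM, in the same library.

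History was compared in TH against HH and TT against HT. In TH against HH, 29 of 45 genes lay above 0 (50.2% of all genes tested), with a median log2 change of 0.15. Both TH libraries exceeded both HH libraries in 13, against 16.7% of all genes tested, and lay below them in 6, against 13.4%. At an unadjusted p under 0.05, 4 genes were higher and 0 lower, against 2.06% and 2.02% of all genes tested (edgeR), and DESeq2 had 0 higher. None passed (edgeR, smallest adjusted p = 0.891; DESeq2 and limma-voom called 0). Without TH replicate 2 the median turned to -0.015 with 22 genes above 0, and without TH replicate 1 it was 0.32, so the direction for the set rests on TH replicate 2. Of the genes at that p, 1 was left without TH replicate 2 and 2 without HH replicate 1.

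The genes of smallest p in TH against HH were Pola2 (1.06 ± 0.35), Chaf1b (0.78 ± 0.32) and Cdt1 (1.48 ± 0.63), with edgeR adjusted p = 0.891 for each. Chaf1b, a subunit of the chaperone that places histones on new DNA, had 4.98 and 6.77 CPM in TT and 7.18 and 6.48 CPM in TH, against 4.66 and 4.49 CPM in HT and 3.70 and 4.17 CPM in HH. Every library with a history of TTX lay above every library without one. This held for 1 of the 45 genes and for 1.73% of all genes tested. The reverse held for 0 of the 45 and for 1.17%. The gap for Chaf1b was narrow, 4.98 CPM in TT replicate 1 against 4.66 CPM in HT replicate 1, on 12 to 34 counts per library. HT against HH and TH against HH share the HH libraries, in which Pola2 and Cdt1 were low, so their values in the 2 comparisons are not independent: Pola2 stood at 1.03 ± 0.36 and Cdt1 at 1.35 ± 0.65 in HT against HH.

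In TT against HT, 29 of 45 lay above 0 (50.1% of all genes tested), with a median of 0.12. Without HT replicate 1 the median was 0.021 with 23 genes above 0, and without TT replicate 2 it was 0.060 with 24. In the full fit 1 gene was higher and 0 lower at an unadjusted p under 0.05, against 1.28% and 1.06% (edgeR). Those numbers were 2 higher without HT replicate 2, without TH replicate 1 or without TH replicate 2, and 0 without TT replicate 2. None passed (edgeR, smallest adjusted p = 1.00; DESeq2 and limma-voom called 0). The gene was Rfc1, at 0.33 ± 0.13. Fen1, which trims the flaps of the lagging strand, stood at 0.76 ± 0.35. Averaged over the second treatment, history had 33 of 45 above 0 (50.0% of all genes tested) and a median of 0.15. Without TH replicate 2 the median was 0.064 with 26 genes above 0, and without TT replicate 2 and without HT replicate 1 it was 0.082 and 0.084. In the full fit there were 3 higher and 0 lower at an unadjusted p under 0.05, against 3.01% and 2.74%. None passed (edgeR, smallest adjusted p = 0.814; DESeq2 and limma-voom called 0), and the 3 became 0 with DESeq2 and without TT replicate 2, 5 without TT replicate 1 and 6 without TH replicate 1.

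Whether history changed the response to the second TTX was tested by the interaction, and no gene of the set passed (edgeR, smallest adjusted p = 1.00; DESeq2 and limma-voom called 0). At an unadjusted p under 0.05, 1 of 45 was higher, Mcm3 at 1.74 ± 0.78 (1.15 without TT replicate 2), and 0 lower, against 0.730% and 0.906% of all genes tested. That 1 became 0 with DESeq2, with limma-voom and without TT replicate 2, TH replicate 1 or HH replicate 1, and 2 without TH replicate 2. The interaction lay above 0 for 22 of 45, against 51.2% of all genes tested. Mcm4 stood at 0.65 ± 0.32 (0.42 without HT replicate 2), and Pola2 had changes of 0.03 ± 0.29 in TT against TH and 1.03 ± 0.36 in HT against HH. Fen1 and Rpa2 had libraries that did not overlap in opposite directions in the 2 histories. This held for 2 of the 45 genes, close to the 3.02% of all genes tested, so it is no trait of the set. Both genes were thinly counted, Fen1 with 12 to 31 counts per library and Rpa2 with 10 to 35, the 10 being in HH replicate 1. Fen1 had 6.23 and 6.17 CPM in TT against 3.31 and 5.06 CPM in TH, and 3.10 and 4.21 CPM in HT against 4.32 and 5.48 CPM in HH, an interaction of 0.97 ± 0.50. Rpa2 had 5.23 and 5.18 CPM in TT against 6.08 and 7.08 CPM in TH, and 5.95 and 6.18 CPM in HT against 3.08 and 5.22 CPM in HH, an interaction of -0.87 ± 0.46.

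Other genes of the pathway were taken from lists chosen with earlier results of these data known. Of the other replication factors, 14 of 22 tested lay above 0 for the second TTX averaged over history, with a median of 0.12, and the smallest p belonged to Cdc7 (0.41 ± 0.16), the kinase that fires origins, and Rnaseh2a (0.37 ± 0.15). Pole2, the second subunit of polymerase epsilon, was counted at 766 to 1271 CPM in 7 libraries and at 4.70 CPM in TH replicate 1. Among other chromatin replication genes, 11 of 12 lay above 0 with a median of 0.25, led by Atad2 (0.51 ± 0.16) and Ezh2 (0.33 ± 0.12). Other nucleotide supply genes had 8 of 10 above 0 and a median of 0.23, with Tk1, thymidine kinase, at 0.53 ± 0.19 and Nme1 at -0.34 ± 0.13.
Among regulators of S-phase entry, 20 of 27 lay above 0 with a median of 0.17. Fbxo5, an inhibitor of the anaphase-promoting complex, stood at 0.91 ± 0.20 and Ccna2, the cyclin of S phase and G2, at 0.75 ± 0.21 (edgeR adjusted p = 0.258 and 0.345). E2f1, an activator of replication genes, stood at -0.33 ± 0.15 and took 0.853% to 1.43% of all counts, the largest share of any gene in each library. Whether all reads counted to the symbols E2f1 and Pole2 come from these genes could not be checked without the annotation used for counting. Repair and replication-stress genes had 11 of 15 above 0 and a median of 0.15. None of these genes passed.

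Mitosis genes lay farther above 0 than the replication genes with the second TTX. All 27 tested lay above 0, with a median of 0.65, and 18 of the 27 (66.7%) had every TTX library above every vehicle library, against 4.44% of the replication genes and 2.69% of all genes tested. At an unadjusted p under 0.05, 23 of the 27 were higher, against 4.35% of all genes tested (edgeR). None passed, the smallest edgeR adjusted p being 0.192, shared by Ect2 (0.76 ± 0.12) and Smc4 (0.66 ± 0.11). Mki67, a marker of cycling cells, had 32.6 and 38.4 CPM in TT and 30.5 and 40.4 CPM in HT, against 17.7 and 28.1 CPM in TH and 21.9 and 24.3 CPM in HH. Top2a, which untangles sister DNA, had 37.1 and 34.5 CPM in TT and 28.7 and 44.6 CPM in HT, against 24.0 and 25.1 CPM in TH and 21.6 and 22.4 CPM in HH. The difference between the lists was not tested.

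**Figure D4:**
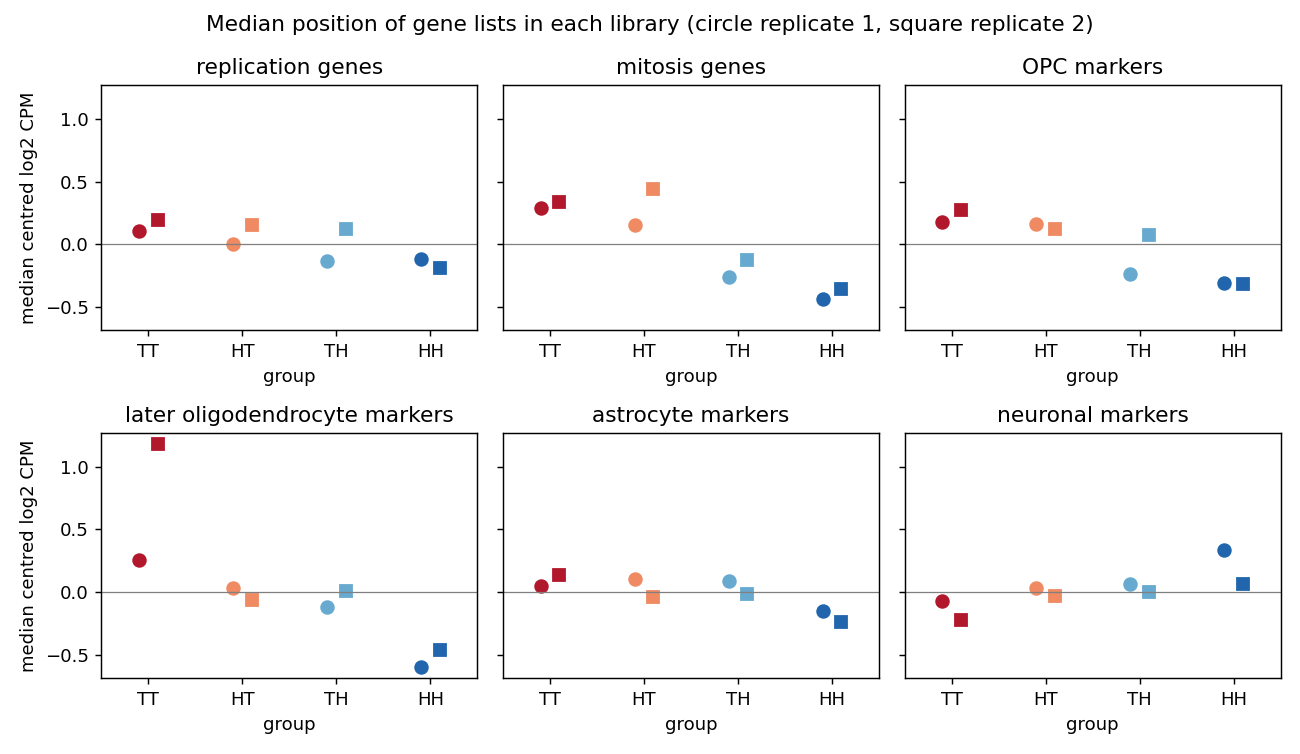
Median over each list of log2 CPM minus the gene's mean, for each library, with TT and HT left of TH and HH. Mitosis genes separate TTX from vehicle libraries (nearest values 0.16 and -0.12), while replication genes overlap, since TH replicate 2 stands at 0.12 and HT replicate 1 at 0.00.

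Most markers of oligodendrocyte lineage cells also lay above 0 with the second TTX, against 49.7% of all genes tested, and none passed. Their summed levels overlapped between TTX and vehicle libraries. All 9 tested markers of oligodendrocyte progenitors lay above 0 for the second TTX averaged over history (median 0.36), and their sum was 1410.4 and 1522 CPM in TT and 1298 and 1371 CPM in HT, against 1029 and 1315 CPM in TH and 1121 and 1039 CPM in HH. As with the replication genes, TH replicate 2 was the highest vehicle library. Later oligodendrocyte markers had 7 of 8 above 0 and sums of 631 and 1300.5 CPM in TT and 562 and 517 CPM in HT, against 533 and 704 CPM in TH and 401 and 373 CPM in HH. The myelin genes Mog and Mag of that list were too low to be tested, and Mag had 26 of its counts in TT replicate 2.
Astrocyte markers had 8 of 10 above 0 (median 0.17), with sums of 2171 and 2077 CPM in TT and 2381 and 2013 CPM in HT, against 2007 and 1793 CPM in TH and 2076 and 1743 CPM in HH. Neuronal markers had 0 of 12 above 0 (median -0.13). Markers of neural progenitors had 6 of 9 above 0, with sums of 566 to 672 CPM over all libraries. Microglial markers had 3 of 4 above 0, summed to 16.0 to 23.9 CPM, and the microglial gene P2ry12 averaged 0.750 counts per library. Endothelial and fibroblast markers had 3 of 5 above 0 with sums of 69.4 to 120 CPM, and Cldn5 averaged 0.250 counts. The part of these cell types in the replication gene levels was not tested.

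The genes outside the set whose levels over the 8 libraries were most like the mean of the 45 replication genes were Rnf144a (Pearson r = 0.984), Dock1 (0.983), Ns5atp9 (0.974), Ntn1 (0.972) and Wipf1 (0.967). Ns5atp9 is an older symbol of Pclaf in RefSeq, a gene whose product binds Pcna. These were picked as the highest of all genes tested and the 8 libraries share the treatments, so the values are a description. Within the set, Pole (0.952), Orc3 (0.938) and Orc5 (0.906) followed the mean of the other members most closely, and Gins2 (-0.457) and Cdc6 (-0.388) ran against it.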

How the data were processed

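BrU-seq nascent RNA was counted in 8 libraries of 4 groups. The deposited values are whole-number read counts per gene symbol, with no scaling. The tools named in the submitters' processing notes are TopHat2, Bowtie2, featureCounts and FastQC, on build rn6. The sources used here do not state versions, annotation, strand setting, use of intronic reads or the selection of genes, so overlapping or antisense genes may share reads, and a setting that skipped introns would lower long genes. Columns were matched to samples by the number opening each description; 2 further columns were not used.

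The test was run in edgeR 4.0.16 under R 4.3.3: filterByExpr (11372 genes, 67.4%, kept), TMM scaling, 1 model of 4 group means on all 8 libraries (residual degrees of freedom: 4). Robust quasi-likelihood tests were used, with p-values adjusted by Benjamini-Hochberg over all genes tested at 0.05. The SE of a log2 change was taken as its size divided by the square root of F, and it draws on the spread of all 4 groups, moderated across genes. Log2 CPM used a prior count of 2. Alternatives were DESeq2 1.42.0, limma 3.58.1 (voom), other scaling and filters, a replicate block, fits of only the groups compared and left-out libraries. Shares of all genes tested at an unadjusted p, or with libraries that do not overlap, come from the main analysis of all 8 libraries. They were not taken for the alternatives. The labels give no batch. Figures used matplotlib 3.10.9 in Python 3.11.15.

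Members and lists were chosen with earlier results of these data known. Values in every library are given for the 8 members of smallest p for the averaged second TTX, the 3 of smallest p in each other comparison and the most counted member of each of 7 roles; others named with library values were added after seeing them. From the other lists the 2 genes of smallest p, Pole2, E2f1, Mki67, Top2a and Ccna2 were fixed for naming, and not all are printed.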

Additional observations from a re-analysis of the deposited data

How the results depend on the processing

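No replication gene passed the adjusted threshold in any comparison under any alternative run. The log2 changes of the members named by smallest p kept their direction in every refit. Those members were picked in the same libraries that the refits reuse, so this was largely fixed by the choice. The members named as most counted were not refitted as single results. Over all genes, the second TTX averaged over history called 13 with DESeq2 and 16 without a low-count filter, where edgeR called 0. With 1 library left out the calls ran from 0 to 8 there, 0 to 39 in HT against HH, 0 to 121 in TH against HH, 0 to 104 for averaged history, 0 to 2 in the interaction and 0 to 1 in TT against TH. Each upper end came without HH replicate 2, so that HH was held by replicate 1 alone, except in TT against TH, where it came without TH replicate 2. A lone library is assumed to vary like the other groups.

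The median log2 change of the members ran, with 1 library left out, from 0.061 to 0.29 in TT against TH, from -0.015 to 0.32 in TH against HH, from 0.021 to 0.16 in TT against HT, from 0.064 to 0.20 for averaged history and from -0.18 to 0.063 in the interaction. Without HH replicate 1 and HT replicate 1 together it was 0.29 in HT against HH and -0.19 in the interaction, where 13 members lay above 0 in place of 22. For the second TTX averaged over history it ran from 0.11 to 0.23. The cause of these shifts was not tested.

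The replicate numbers do not show that the libraries are paired: deviations of same-numbered libraries correlated at 0.45 between HH and HT and from -0.066 to 0.087 between the other groups. With a replicate block, 0 genes were called in every comparison, and the members' median for the averaged second TTX was 0.17. Several members rest on fewer than 20 counts in most libraries, such as Cdt1, Mcm3, Orc1 and Pold1, and their SEs for the averaged second TTX were 0.36 to 0.43 on the log2 scale.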
